A study of Mus musculus with 31 samples.

Results

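Ependymal cells of the Foxj1_Olig2_tdT genotype were compared 1 day after spinal cord injury with the same genotype without injury. The comparison was defined by its libraries alone: 2 labelled Foxj1_Olig2_tdT_1dpi against 2 labelled Foxj1_Olig2_tdT_Uninj, which are 4 of the 31 samples of the series and 4 of its 12 bulk RNA libraries. All 16301 genes of the deposited table were members, and 15811 were tested, namely those that reached 10 in 2 or more of the 12 bulk libraries.

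The cells came from spinal cord of mice on the C57BL/6 background, were obtained by tissue digestion and flow cytometry, and were sequenced with Smart-seq2 (a full-length RNA-seq method for small samples) from about 1k cells. The genotype is named for Foxj1, the transcription factor of motile cilia, for Olig2, a regulator of oligodendrocyte fate, and for the red fluorescent reporter tdT, and all 4 libraries carry all 3 names. A second genotype, Foxj1_tdT, lacks Olig2 in its name and also had 2 libraries each without injury, at 1 dpi and at 5 dpi. The labels do not expand dpi, which was read as days after injury, nor give the type of injury, the promoter or recombinase behind each allele, the age of the mice, or whether replicates were separate animals or pools. The p-values therefore rest on how far these libraries differ from one another, and that variation may be technical. In bulk RNA, fewer cells of a type and less RNA per cell cannot be told apart.

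Ependymal cells form the lining of the fluid-filled canal at the centre of the cord, bear motile cilia that move cerebrospinal fluid, and rarely divide in the intact cord. After spinal cord injury they are known to enter the cell cycle and to give rise mainly to astrocyte-like scar cells. Olig2 is needed for oligodendrocyte progenitors to form, and works with Olig1, Sox10 and Nkx2-2 in that lineage.

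Values are normalised counts as deposited, and each pair of values below is replicate 1 then replicate 2. A log2 fold change is the 1 dpi mean minus the uninjured mean of log2(value + 1), so it understates the change of low genes. Its standard error (SE) and Benjamini-Hochberg adjusted p come from limma with the spread shared over all 6 groups of bulk libraries. A gene "rose" or "fell" where the adjusted p was under 0.05. The count of detected genes was 14395 and 14739 without injury and 14981 and 15012 at 1 dpi. The uninjured pair was the less even of the 2 pairs, with 412 genes listed at 0 in one replicate but reaching 50 in its partner, compared with 215 in the 1 dpi pair. All 12 ependymal marker genes were above 0 in all 4 libraries. Fitted on the 4 libraries alone, no gene passed the adjusted threshold and 2513 had an unadjusted p under 0.05, so every call below rests on the spread shared with the other bulk libraries.

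Injury was followed by 719 calls at 1 dpi, 4.55% of the genes tested. Of these, 602 rose (3.81%) and 117 fell (0.740%). These shares are the background for every count of list members that rose or fell in these cells below. Among genes that rose the log2 fold change had a median of 2.98 and ran from 0.543 to 10.4, and among genes that fell the median was -1.28 and the range -7.87 to -0.554. These medians and ranges include genes listed at 0 in both libraries of a group, whose fitted change depends on the pseudocount. The highest value, 10.4, is that of Ccl7, which was listed at 0 without injury. The calls covered genes of glial reactivity, cytokine and interferon signalling, the replication machinery and the ribosome on the side that rose. On the side that fell they covered the secreted protein Rarres2, the adhesion and junction genes Crb2 and Ocln and a few genes of cilia. The libraries of the 2 groups did not overlap in any of the 716 called genes that carry an intact gene name. Over all genes tested 23.0% had both 1 dpi libraries above both uninjured ones and 23.5% had both below. Calls were made on the same libraries, so their lack of overlap largely follows from the calling and is not separate support. Leaving out 1 library at a time moved the number of calls between 288, without Foxj1_Olig2_tdT 1 dpi replicate 2, and 1063, without Foxj1_Olig2_tdT uninjured replicate 2. There were 362 calls without Foxj1_Olig2_tdT 1 dpi replicate 1. The number that fell was 38 in place of 117 without Foxj1_Olig2_tdT uninjured replicate 1, 53 without 1 dpi replicate 1 and 43 without 1 dpi replicate 2. A named call below passed without each of the 12 libraries unless its paragraph says otherwise. That was so for 51 of the 122 called genes chosen for naming, and 71 lost the call without at least 1 library.

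**Figure D1:**
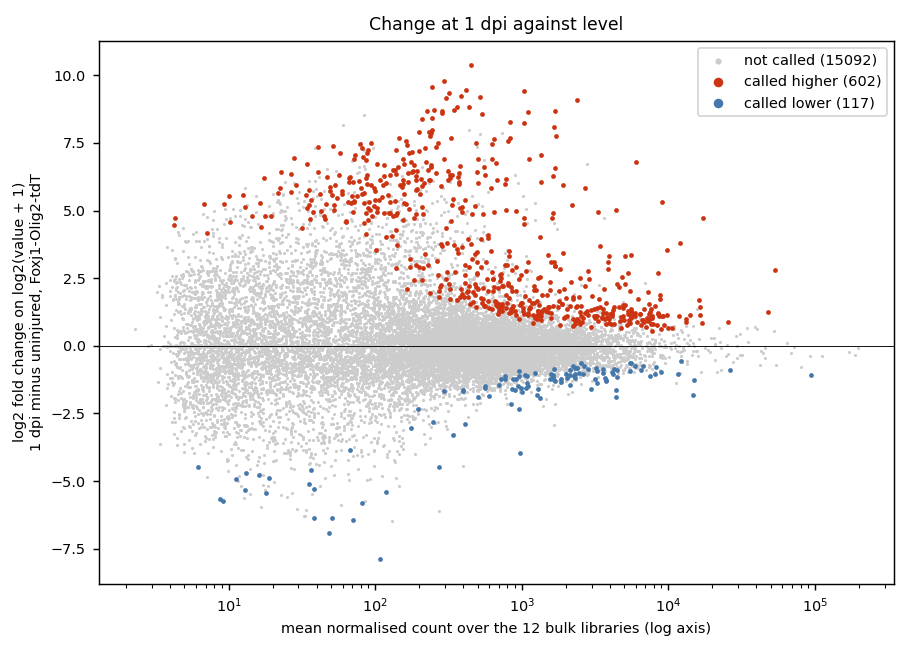
Log2 fold change (1 dpi minus uninjured, Foxj1_Olig2_tdT) of every gene tested against its mean normalised count over the 12 bulk libraries on a log axis; red points rose (602), blue points fell (117) and grey points did not pass. Calls that rose reach large fold changes at low levels, while calls above a mean of 1000 are mostly of a few log2 units.

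The share of genes called was higher among abundant genes. Among 5120 genes with a mean under 100 normalised counts, 93 rose and 18 fell. Among 2788 genes between 1000 and 10000, 222 rose (7.96%) and 63 fell (2.26%). Of the 109 genes at 10000 or more, 15 rose and 6 fell. The 3 abundant genes that follow were chosen after their values were seen. Cd9, a tetraspanin, went from 7221.9 and 7390.7 to 20503.4 and 27105.6 (log2 fold change 1.69, SE 0.15, adjusted p = 0.00109). Eef1a1, the translation elongation factor, went from 26006.2 and 21341.4 to 53890.3 and 57523.5. In the other direction Calm2, a calmodulin gene, went from 44577.5 and 44421.2 to 22668.3 and 25103.1 (log2 fold change -0.90, SE 0.11, adjusted p = 0.00262). In each of these 3 genes the gap between the groups was wider than the gap between replicates. They were picked and called on these same values, so this gap is not separate support.

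Olig2 itself was present in all 4 libraries and did not pass the test. It read 2450.1 and 1690.3 without injury, 3840.5 and 3960.9 at 1 dpi, then 2794.1 and 3792.5 at 5 dpi, whereas Foxj1_tdT cells read 4.5 and 4.4 without injury and 11.7 and 2.2 at 1 dpi. Both 1 dpi values lay above both uninjured ones, but the log2 fold change of 0.94 had an SE of 1.02 (adjusted p = 0.655). The labels thus match the level of Olig2 in every library of the 2 contrasts. Foxj1 started at 3208.8 and 3386.6, read 2192.5 and 2301.5 at 1 dpi and stood at 982.3 and 933.9 by 5 dpi. Its log2 fold change at 1 dpi was -0.55 (SE 0.17, adjusted p = 0.114), so the lower 1 dpi values did not pass.

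**Figure D2:**
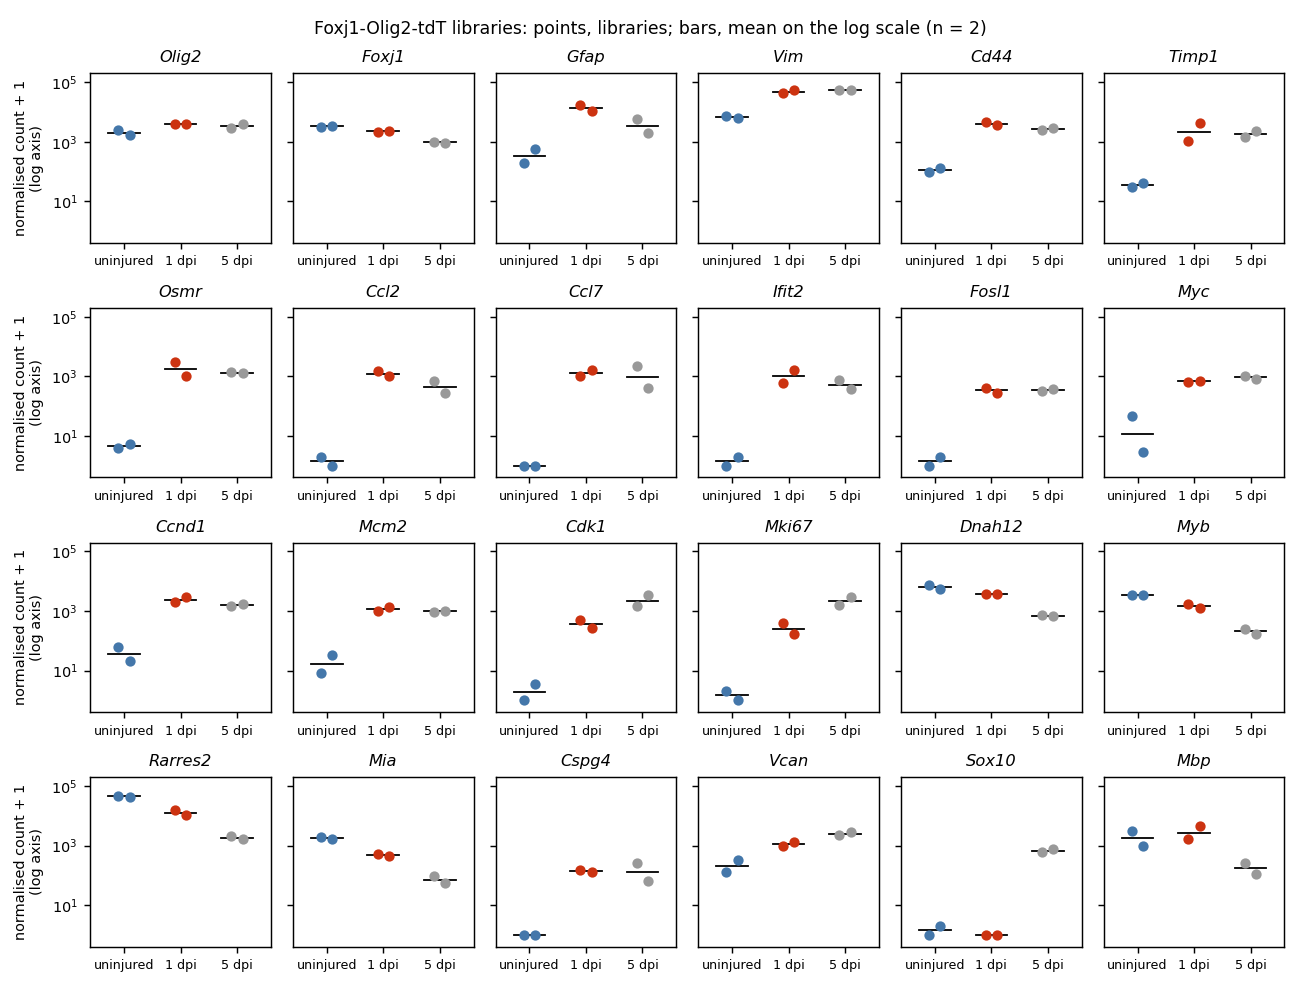
Normalised counts of 24 genes in each Foxj1_Olig2_tdT library without injury, at 1 dpi and at 5 dpi, on a log axis of value + 1, with 1 point per library and a bar at the mean of the log values. Reactive, cytokine and cell cycle genes stand higher at 1 dpi than without injury, Rarres2 and Mia stand lower, and Olig2 and Foxj1 shift by less.

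Genes of reactive gliosis, the response of glia to damage, were mostly called higher. Of 21 tested members, 13 rose and none fell, all 21 had a positive log2 fold change, and the median was 3.80 against 0 for all genes tested (3.42 without members listed at 0 in a group, whose fitted change depends on the pseudocount). One library at a time left out gave 10 to 14 called members. Vim, an intermediate filament protein of immature and reactive glia, went from 7068.7 and 6453.9 to 41796.2 and 54439.3 (log2 fold change 2.82, SE 0.13, adjusted p = 6.97e-05). Gfap, the filament protein of astrocytes, went from 186.1 and 588 to 16859.6 and 10425 (5.32, SE 0.66, adjusted p = 0.00326), and stood lower again at 5 dpi, at 5895.1 and 1927.6. Both 1 dpi libraries were far above both uninjured ones for each filament gene. Nes, the filament protein of neural progenitors, went from 67.9 and 132.2 to 841.6 and 1249.2 and read 5052.6 and 4057.3 at 5 dpi. Its log2 fold change at 1 dpi was 3.42 (SE 0.37, adjusted p = 0.00206).

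Surface and secreted members of the same list moved with the filaments. Cd44, the hyaluronan receptor, went from 92 and 127.5 to 4576.8 and 3634.3 (log2 fold change 5.22, SE 0.44, adjusted p = 0.000917). Timp1, an inhibitor of matrix metalloproteinases, went from 28.1 and 38.8 to 1078.6 and 4092.5, so the 1 dpi libraries differed from each other more than for Vim but both lay above the uninjured range. S100a6, a calcium-binding protein, went from 30.1 and 108.9 to 5114.3 and 8177.4 (6.79, SE 0.56, adjusted p = 0.000878). Lgals3, a galectin, started higher, at 1584.4 and 950.7, and reached 12112.5 and 24099.4. Sphk1, the kinase that makes sphingosine 1-phosphate, was nearly absent at 0.5 and 0 and reached 138.3 and 115.8. Serpina3n, a protease inhibitor of reactive astrocytes, went from 0 and 2 to 176.6 and 241.4, but its adjusted p of 0.0413 passed in only 4 of 12 leave-one-out fits. Lcn2, a lipocalin that is among the strongest reactive astrocyte genes in inflammation, was at 0 and 0 and then 15.2 and 28.3 and did not pass.

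**Figure D3:**
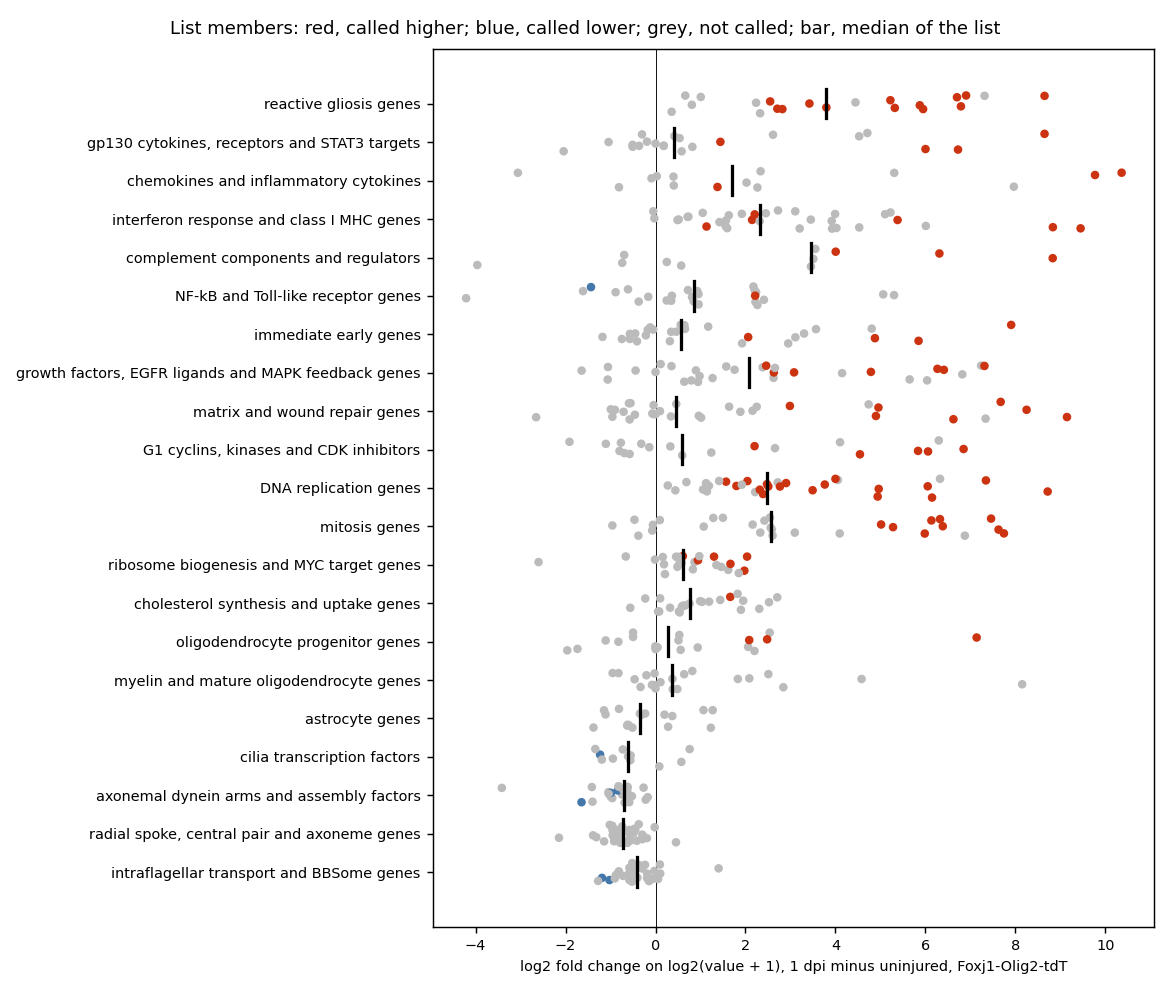
Log2 fold change (1 dpi minus uninjured, Foxj1_Olig2_tdT) of every tested member of 21 gene lists, 1 row per list; red members rose, blue members fell, grey members did not pass and the black bar is the list's median. Reactive gliosis, DNA replication, mitosis and interferon members lie mostly above 0, and the cilia lists lie just below 0 with few calls.

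The next list held cytokines, receptors and STAT3 targets of gp130, the shared receptor chain of the interleukin-6 family. The members that rose were Osmr, Bcl3, Clcf1 and Stat3, and Il6st, which encodes gp130 itself, was not among them. RNA levels do not measure signalling. Of 21 members 4 rose and none fell, with a median log2 fold change of 0.42. Osmr, the receptor subunit for oncostatin M, went from 2.9 and 4.2 to 3131.6 and 1041.8 (8.65, SE 0.54, adjusted p = 0.000336) and stayed at 1347.6 and 1250.3 at 5 dpi. Clcf1, a cytokine of the family, went from 8.1 and 1.1 to 408.6 and 190.7. Stat3, the transcription factor downstream of gp130, went from 1029.1 and 692 to 2807.3 and 1876.2 (1.44, SE 0.29, adjusted p = 0.0279). Bcl3, an atypical I-kappa-B protein, went from 3.1 and 0 to 218.8 and 207.8. Socs3, the feedback inhibitor of this receptor, did not pass, at 2755.4 and 1503.3 against 2997.9 and 3087.7 (0.58, SE 0.28, adjusted p = 0.305). The Stat3 call was lost without any of 7 single libraries, with a log2 fold change between 1.15 and 1.73 over all 12, and the Clcf1 call was lost without Foxj1_Olig2_tdT 1 dpi replicate 1 (adjusted p = 0.0717).

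Among 14 chemokines and inflammatory cytokines 3 rose and none fell. Ccl2, the main monocyte attractant, went from 1 and 0 to 1461.6 and 1042.8 (log2 fold change 9.77, SE 0.86, adjusted p = 0.00105) and was lower at 5 dpi, at 674.6 and 279.3. Ccl7, a close relative of Ccl2, had a value of 0 in each uninjured library and of 1028.5 and 1682.8 at 1 dpi (adjusted p = 0.00166). In Foxj1_tdT cells Ccl7 read 0 and 0.8 without injury and 1.1 and 0 at 1 dpi, and the interaction of injury and genotype had an adjusted p of 0.052. Mif, a cytokine held in many resting cells, rose from a high start, from 1593 and 1591.6 to 4329.9 and 3953.7 (1.38, SE 0.18, adjusted p = 0.00451). Cxcl10 went from 1.1 and 0 to 34.5 and 3700.2, a spread between the 1 dpi libraries too wide to pass (adjusted p = 0.084).

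Genes of the interferon response and of class I MHC leaned upward as a list. Of 33 members 6 rose and none fell, and 31 had a positive log2 fold change. The 1 dpi libraries lay above the uninjured ones in 26, and the median was 2.32 (2.18 without members listed at 0 in a group). Over all genes tested 3.81% rose and 23.0% lay above without overlap. Ifit2, an interferon-induced RNA-binding protein, went from 0 and 1 to 592.5 and 1649.2 (9.45, SE 0.86, adjusted p = 0.00109). Irf9, part of the ISGF3 transcription complex, went from 480.6 and 306.1 to 1558 and 2014.5 (2.20, SE 0.36, adjusted p = 0.0115). Ifitm3, a membrane protein that blocks viral entry, was abundant throughout, from 8776.2 and 6489.3 to 15550.9 and 17634.5 (1.13, SE 0.24, adjusted p = 0.0334). Isg15, a ubiquitin-like protein, went from 1.1 and 0 to 35 and 100.3. Ifit1 went from 2.1 and 2 to 612.9 and 3154.4. At 1 dpi replicate 2 stood higher than replicate 1 in these 5 genes but not in Ifitm2, at 680.9 and 474.6. Without Foxj1_Olig2_tdT 1 dpi replicate 2 only 1 member was called and the adjusted p of Isg15 was 0.101. The Irf9 call was lost without either 1 dpi library (adjusted p up to 0.0885), those of Ifitm2 and Ifit1 without any of 5 and 8 libraries (up to 0.124 and 0.181), and that of Ifitm3 was kept in 5 of 12 leave-one-out fits.

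Complement genes had 3 calls among 11 members, all higher. C3, the central component, went from 1.4 and 0.7 to 1093.8 and 771.4 (log2 fold change 8.83, SE 1.00, adjusted p = 0.00247) and was lower again at 5 dpi, at 154.6 and 142. Serping1, the C1 inhibitor, went from 124.7 and 75.6 to 1290.5 and 1923.5 (4.01, SE 0.48, adjusted p = 0.00292). C1s1, a protease of the C1 complex, was listed at 0 without injury and at 305.1 and 19.6 at 1 dpi, and its call was lost without any of 8 libraries. In the list of 25 NF-kB and Toll-like receptor genes 1 member rose and 1 fell, beside 3.81% and 0.740% of all genes tested. Tnfrsf1a, the TNF receptor, went from 312.1 and 194.1 to 1329.4 and 989.1 (2.22, SE 0.33, adjusted p = 0.00797). Traf1, a signalling adaptor, went from 3782.9 and 3571.5 to 1606.7 and 1149.5 (-1.43, SE 0.30, adjusted p = 0.0359). The receptor and the adaptor moved in opposite directions, and these single calls are not read as a result about the list. The Tnfrsf1a call was lost without Foxj1_Olig2_tdT 1 dpi replicate 1 (adjusted p = 0.0646) and the Traf1 call without any of 6 libraries.

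Immediate early genes are induced within minutes by stress, injury and tissue handling, and many of them encode transcription factors. Of 27 members 4 rose and none fell, and the median log2 fold change was 0.56. Fosl1, a slow member of the Fos family, went from 0 and 1 to 419.7 and 272.8 (7.91, SE 1.33, adjusted p = 0.0136). Fosl2, its relative, reached 236.8 and 92.9 (4.88, SE 0.95, adjusted p = 0.0247). Myc, the growth regulator, went from 46.8 and 1.9 to 658.4 and 696.4 (5.85, SE 1.11, adjusted p = 0.0227). Klf6, a zinc finger factor, went from 966.9 and 436 to 2442.8 and 3006.3. The list members Fos and Atf3 did not pass. Fos was high in every library, at 26729.5 and 8973.5 without injury against 13524.1 and 13161.8 at 1 dpi (-0.22, SE 0.47, adjusted p = 0.85), and Atf3, a stress-induced factor, read 3485.5 and 937.8 against 1596 and 1608.1. Uninjured replicate 1 was the highest library and uninjured replicate 2 the lowest for both Fos and Atf3. All 4 calls were lost without either 1 dpi library, with an adjusted p of up to 0.14, that of Fosl1 was also lost without Foxj1_Olig2_tdT uninjured replicate 1, and those of Fosl2, Myc and Klf6 were also lost without either Foxj1_Olig2_tdT 5 dpi library.

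Fos and Jun family proteins bind the AP-1 motif, and the starts of the called genes were searched for it in RefSeq promoter windows of build GRCm38.p6 from 250 bases before to 50 bases after each gene start. The motif TGANTCA was found on either strand in 7.45% of the 564 windows of genes that rose, in 5.93% of the 118 windows of genes that fell and in 5.46% of the 14479 windows of all genes tested. The difference between these shares was not tested. Candidates for display had such a motif upstream, a value above 0 in an uninjured library and a mean of at least 50 in 1 group. Genes of 1 chromosome were left out. The sequences below show the first match in the 4 candidates that rose by the largest log2 fold change. Each has 30 bases on either side on the gene's own strand, with the motif in capitals.
Ecm1, chr3:95739597-95739663, minus strand: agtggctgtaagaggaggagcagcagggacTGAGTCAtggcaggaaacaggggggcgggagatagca
Pkn3, chr2:30078540-30078606, plus strand: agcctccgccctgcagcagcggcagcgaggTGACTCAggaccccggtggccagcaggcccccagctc
Sphk1, chr11:116531757-116531823, plus strand: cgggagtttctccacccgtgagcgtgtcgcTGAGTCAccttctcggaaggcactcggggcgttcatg
Col6a1, chr10:76726098-76726164, minus strand: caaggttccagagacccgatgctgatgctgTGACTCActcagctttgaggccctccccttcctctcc
The motif starts 64 bases before the start of Ecm1, 128 before that of Pkn3, 124 before that of Sphk1 and 90 before that of Col6a1. Ecm1, an extracellular matrix glycoprotein, went from 0.6 and 13.7 to 1645.8 and 2422.1 (log2 fold change 8.69, SE 0.93, adjusted p = 0.00206). Pkn3, a protein kinase, went from 0 and 0.9 to 273.9 and 169.3 (7.29, SE 0.95, adjusted p = 0.00426). The values of Sphk1 stand above with the gliosis genes, and those of Col6a1 below with the matrix genes. A match is a description of these letters and was not measured as a binding site. Further motifs were searched on both strands. TGACGTCA, the cyclic AMP response element, was in 3.55% of windows of genes that rose against 2.84% of all windows, TTCNNNGAA, the STAT motif, in 7.09% against 7.23%, and GGANTTTCC, an NF-kB motif, in 1.6% against 1.22%. The start of the X-box, GTTGCCATG, which RFX factors of ciliated cells bind, was in 0.847% of windows of genes that fell against 0.725% of all windows. The E-box CACGTG was in 9.93% of windows of genes that rose, 12.7% of those of genes that fell and 9.34% of all, and the E-box CAGATG in 10.1%, 15.3% and 12.1%. None of these differences was tested.

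Growth factor and MAPK feedback genes had 7 calls among 30 members, all higher, and 25 of the 30 log2 fold changes were positive, with a median of 2.07 (1.27 without the 7 members listed at 0 in a group). Hbegf, a ligand of the EGF receptor, went from 592.5 and 412 to 3866 and 4530.4 (3.08, SE 0.35, adjusted p = 0.00251) and was still at 5645.8 and 5710.8 at 5 dpi. Tgfa, a second ligand of that receptor, went from 9.2 and 0 to 250.5 and 239.8. The inhibitors Spry1 and Spry4, which brake receptor tyrosine kinase signalling, were listed at 0 in both uninjured libraries and read 113.9 and 219.1 and 91.8 and 77 at 1 dpi. Etv4, a transcription factor downstream of MAPK, had no value above 0 without injury and read 43.4 and 16.2. Phlda1, another gene induced by growth factors, went from 164 and 140.5 to 715.9 and 985 (2.46, SE 0.33, adjusted p = 0.00481). Ligands and inhibitors of the same pathway were therefore both higher at 1 dpi. The calls of Tgfa, Dusp6 and Etv4 were lost without any of 7, 9 and 4 libraries, with adjusted p up to 0.14 for Tgfa and 0.104 for Etv4, and those of Hbegf, Spry1, Spry4 and Phlda1 were kept in every leave-one-out fit.

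Of 31 matrix and wound repair genes 7 rose and none fell, but 12 had a negative log2 fold change and the median was 0.46. Itga5, the fibronectin receptor subunit, went from 2.1 and 2 to 720.1 and 1193.7 (8.25, SE 0.83, adjusted p = 0.00172) and reached 4343.4 and 3443.9 at 5 dpi. Collagen VI chains rose as well, Col6a2 from 0 and 1.1 to 295 and 294.8 and Col6a1 from 0 and 2 to 70.8 and 404.9. Has2, the hyaluronan synthase, went from 1.1 and 1 to 88.7 and 44.1. Fn1, fibronectin itself, was chosen after its values were seen as the ligand of Itga5, and read 123.8 and 164.5 against 176.8 and 218.9 at 1 dpi (0.46, SE 0.56, adjusted p = 0.691) and 12615.1 and 9245.7 at 5 dpi. The receptor chain thus passed at a time when its ligand did not. Col6a1 lost its call without Foxj1_Olig2_tdT 1 dpi replicate 2 (adjusted p = 0.059) and Has2 without any of 8 libraries (up to 0.165).

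Genes with large log2 fold changes that stand outside these lists were also among those named. Emp3, a small membrane protein, went from 0 and 0.8 to 838.3 and 1021 (9.43, SE 0.45, adjusted p = 6.97e-05). Olfml3, a secreted olfactomedin-like protein, went from 3.4 and 7.9 to 2591.8 and 4491.2 (9.09, SE 0.52, adjusted p = 0.00021). Fxyd5, a regulator of the sodium pump and of adhesion, went from 7.1 and 0.3 to 1005.2 and 1476.4. Gap43, a growth cone protein of neurons that glia can also express, went from 0 and 0.9 to 422.9 and 327.1 (8.08, SE 0.57, adjusted p = 0.000468) and was at 6924.5 and 6010.5 at 5 dpi. Megf11, a transmembrane protein, took the opposite later course, from 0.9 and 0 to 448 and 501.7 at 1 dpi, with 57.9 and 26.2 left at 5 dpi. The processed pseudogene Rpl34-ps1 also stood in this range, from 0 and 7.8 to 1850.6 and 1972.2, but its reads can be shared with its parent gene, so its value is uncertain.

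In all, 102 of the called genes were listed at 0 in both uninjured libraries, and 14 were listed at 0 in both 1 dpi libraries. The former are given by their values, though the ranges and medians of all calls include their fitted changes. The most abundant of the former included Trib1, a pseudokinase, at 459.5 and 777.8 at 1 dpi. Lgals3bp, a secreted binding partner of galectin 3, was at 423.3 and 388.8. Upp1, uridine phosphorylase, was at 521.8 and 1071.7, and Thbd, thrombomodulin, at 772.9 and 433.1. The calls of Trib1 and Lgals3bp held in every leave-one-out fit, while those of Upp1 and Thbd were lost without Foxj1_Olig2_tdT uninjured replicate 1 or either 1 dpi library, with adjusted p up to 0.0977 and 0.0838.

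Genes of G1, of DNA replication and of mitosis each had members that rose, and none of these 3 lists had a member that fell. Of 19 G1 cyclins, kinases and inhibitors 5 rose and none fell. Ccnd1, cyclin D1, went from 60.7 and 20.5 to 2045.1 and 2877.6 (log2 fold change 6.06, SE 0.51, adjusted p = 0.000936) and was at 1421 and 1761.7 at 5 dpi. Ccne1, cyclin E1, went from 3 and 0 to 172.4 and 74.3, and E2f1 from 1.1 and 5 to 64.6 and 103.7. E2f3, another E2F factor, was listed at 0 without injury and at 105.8 and 123.4 at 1 dpi. Cdkn1a, the inhibitor p21, read 441.9 and 869.4 against 1351 and 1590.3 and did not pass (1.24, SE 0.55, adjusted p = 0.258). The call of Ccne1 was lost without Foxj1_Olig2_tdT 1 dpi replicate 1 (adjusted p = 0.065), that of E2f1 without Foxj1_Olig2_tdT uninjured replicate 1 or either 1 dpi library (up to 0.113) and that of Cdk2 without any of 9 libraries (up to 0.199). From 2 to 7 members of the list were called over the leave-one-out fits.

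Of 31 DNA replication genes 18 rose and none fell, all 31 log2 fold changes were positive, and the median was 2.48 (2.43 without members listed at 0 in a group). The helicase loader Cdt1 went from 0 and 5.9 to 340.5 and 533.5 (7.35, SE 0.89, adjusted p = 0.00289), and its partner Cdc6 had no value above 0 without injury and read 258.2 and 683.2. Mcm2, a subunit of the helicase they load, went from 7.5 and 31.5 to 989.5 and 1400.3 (6.15, SE 0.57, adjusted p = 0.00111). The other subunits started from different levels, Mcm5 at 46.1 and 39.4, Mcm7 at 603.5 and 417.2 and Mcm6 at 1160.5 and 660.4. At 1 dpi they read 480.9 and 1010.6 for Mcm5, 1347.3 and 1647.4 for Mcm7 and 2665 and 3484.8 for Mcm6. Both 1 dpi libraries lay above both uninjured ones for each of these helicase subunits. Pcna, the sliding clamp, went from 539.6 and 559.8 to 4076.9 and 3440.2 (2.77, SE 0.25, adjusted p = 0.00109), and Tk1, thymidine kinase, from 7.4 and 11.2 to 226 and 437.6. The number of called members was 9 without Foxj1_Olig2_tdT 1 dpi replicate 2 and reached 19 in another leave-one-out fit. The calls of Mcm7 and Mcm6 were kept in 11 and 7 of 12 leave-one-out fits.

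E2F factors bind upstream of many replication genes, and 2 forms of their motif were searched in the same windows after the replication genes had been seen to rise. TTTGGCGC was present in 16.1% of the 31 windows of the replication list (26 genes with a window) against 0.877% of all windows and 1.95% of the windows of genes that rose. TTTCCCGC was present in 19.4% of the replication windows against 1.77% of all windows and 3.72% of those of genes that rose. In the 19 windows of replication genes that rose each motif was present in 15.8%, close to the share in the whole list. Neither was found in a window of a gene that fell. The sequences below are matches upstream of replication genes that rose, the first per motif and window. Genes of a chromosome left out of the display are not shown. Each has the motif in capitals and 30 bases on either side. All are on the gene's own strand, so GCGGGAAA and GCGCCAAA are the same motifs read from the other strand.
Cdc6, chr11:98907983-98908050, plus strand: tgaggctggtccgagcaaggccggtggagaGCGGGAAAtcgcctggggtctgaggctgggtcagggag
Mcm5, chr8:75109330-75109397, plus strand: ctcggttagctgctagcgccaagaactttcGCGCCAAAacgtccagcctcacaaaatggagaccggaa
Mcm6, chr1:128359778-128359845, minus strand: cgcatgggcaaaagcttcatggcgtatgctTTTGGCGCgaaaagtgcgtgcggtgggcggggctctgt
Mcm7, chr5:138172011-138172078, minus strand: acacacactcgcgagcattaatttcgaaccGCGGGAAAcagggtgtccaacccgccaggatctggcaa
They start 138, 149, 110 and 165 bases before the respective gene starts. Motif sharing is a description of the reference sequence, and binding was not measured.

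Of 28 mitosis genes 9 rose and none fell, 23 had a positive log2 fold change and the median was 2.57 (2.42 without the 5 members listed at 0 in a group). Mki67, the proliferation marker, went from 1.1 and 0 to 395.7 and 163.1 (7.46, SE 0.81, adjusted p = 0.00206), and Cdk1, the mitotic kinase, from 0 and 2.5 to 495.2 and 274.3 (7.63, SE 0.70, adjusted p = 0.00109). Bub1, a checkpoint kinase, was listed at 0 without injury and at 206.5 and 220.9 at 1 dpi. Top2a, the topoisomerase, went from 27.5 and 7.6 to 347.4 and 734.8. The mitotic cyclins did not pass, with Ccnb1 at 4.8 and 3.2 against 71 and 1.7 and Ccnb2 at 8.4 and 5 against 63.5 and 0. For both cyclins 1 dpi replicate 1 alone was above the uninjured range. Values at 5 dpi were higher still, at 1612.3 and 2869.9 for Mki67 and 1439.5 and 3366.1 for Cdk1. Without Foxj1_Olig2_tdT 1 dpi replicate 2 the count of called members was 5, and it reached 12 in another leave-one-out fit. Kif20a, a mitotic kinesin, lost its call without Foxj1_Olig2_tdT 1 dpi replicate 1 (adjusted p = 0.0608) and Bub1b, a checkpoint kinase, without replicate 2 (adjusted p = 0.1).

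Lists of biosynthesis and metabolism held few calls. Of 25 ribosome biogenesis and MYC target genes 6 rose and none fell, with 22 positive log2 fold changes and a median of 0.61. Ncl, nucleolin, went from 3791.7 and 3820 to 7003.3 and 7655.6 (0.94, SE 0.17, adjusted p = 0.0193). Bop1, an assembly factor of the large ribosomal subunit, went from 135.8 and 151.8 to 477.7 and 674.2. Leaving out either 1 dpi library gave 1 called member. The Ncl call was lost without any of 5 libraries (adjusted p up to 0.118) and that of Bop1 without Foxj1_Olig2_tdT 1 dpi replicate 2 (adjusted p = 0.0782). Of 22 glycolysis and hypoxia genes 3 rose and 1 fell. Pfkfb3, which makes an activator of glycolysis, went from 12.9 and 0 to 290.3 and 75.7 (5.33, SE 1.22, adjusted p = 0.0474), a call lost without any of 9 libraries (adjusted p up to 0.21). Ldha, lactate dehydrogenase A, went from 2950.5 and 2237.8 to 9605 and 7489.2 (1.72, SE 0.24, adjusted p = 0.00518) and Hk2, hexokinase 2, from 4.3 and 12.1 to 108.9 and 82.8. The glucose transporter Slc2a1 moved the other way, from 19763.4 and 17221.2 to 9089.5 and 9659.5 and then 2456.5 and 2981 at 5 dpi (1 dpi log2 fold change -0.98, SE 0.17, adjusted p = 0.0173). Without Foxj1_Olig2_tdT 1 dpi replicate 1 no member of this list was called (Ldha adjusted p = 0.0501). Slc2a1 also lost its call without Foxj1_Olig2_tdT uninjured replicate 1 or 1 dpi replicate 2 (up to 0.0974), and Hk2 without any of 7 libraries (up to 0.14).

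Oxidative stress enzymes had 3 calls among the 20 heat shock and oxidative stress genes, all higher. The list as a whole had no common direction, with 10 positive and 10 negative log2 fold changes and a median of -0.016. Txnrd1, thioredoxin reductase, went from 502.9 and 586.4 to 1924.9 and 2100.7 (log2 fold change 1.89, SE 0.24, adjusted p = 0.00349). Hmox1, heme oxygenase, went from 2.2 and 0 to 67.2 and 105, and Srxn1, sulfiredoxin, had a log2 fold change of 2.98 (SE 0.48, adjusted p = 0.0114). Both of the latter calls were lost without either 1 dpi library (adjusted p up to 0.106 and 0.0874). Of 23 cholesterol genes 21 had a positive log2 fold change, the median was 0.76, and Cyp51 alone rose (1.66, SE 0.38, adjusted p = 0.0471), a call lost without any of 9 libraries. Endoplasmic reticulum stress genes had 1 call in each direction among 22. Atf4, the integrated stress response factor, rose by 1.39 on the log2 scale and Dnajc3, a chaperone, fell by 0.62, and these calls were lost without any of 7 and 8 libraries. None of 20 circadian and glucocorticoid target genes passed. Over all genes tested 3.81% rose and 0.740% fell. The single calls in the cholesterol and endoplasmic reticulum stress lists are therefore not read as results about those lists.

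Genes of motile cilia were lower at 1 dpi in nearly all members by amounts that mostly did not pass. Of 29 axonemal dynein genes and assembly factors all 29 had a negative log2 fold change, 24 had both 1 dpi libraries below both uninjured ones, and 3 fell, with a median of -0.71. Of 36 radial spoke, central pair and axoneme genes 35 were negative, 32 did not overlap, and 0 passed with limma, with a median of -0.72. Over all genes tested 23.5% had both 1 dpi libraries below both uninjured ones, and 0.740% fell. The median dynein gene stood at 61.3% of its uninjured value at 1 dpi and at 11.9% at 5 dpi, and the median axoneme gene at 60.5% and 12.9%. Dnali1, a light chain of the inner dynein arm, went from 7479 and 7264.4 to 3860.6 and 3560 (-0.99, SE 0.22, adjusted p = 0.0437). Dnah12, a dynein heavy chain, went from 7766.6 and 5425.3 to 3647.5 and 3606.6 (-0.84, SE 0.19, adjusted p = 0.0492). Rsph1, a radial spoke protein chosen after its values were seen, went from 14995.5 and 13690.2 to 8439.2 and 7595.5 and missed the threshold (-0.84, SE 0.20, adjusted p = 0.0549). The 3 dynein calls were lost without any of 8 to 9 single libraries (adjusted p up to 0.18) and no member was called in 5 leave-one-out fits. These genes share libraries and scaling, so the number with one sign is not a count of independent changes.

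The transport and transcription factor genes of cilia gave few calls. Of 29 intraflagellar transport and BBSome genes 2 fell, with a median of -0.40. Ift80, a transport subunit, went from 3936.2 and 2947.8 to 1241.6 and 1793.8 (-1.19, SE 0.24, adjusted p = 0.0322), and Ttc8, a BBSome subunit, from 5260.5 and 4572.5 to 2111.1 and 2757. Of 11 cilia transcription factors only Myb, which acts early in multiciliated cell formation, fell, from 3429.7 and 3487.6 to 1727 and 1252.9 and then to 240.8 and 174 at 5 dpi (1 dpi log2 fold change -1.23, SE 0.28, adjusted p = 0.0456). Rfx2, a factor that works with Foxj1, read 1758.9 and 1305.7 against 801.6 and 1227.7 (-0.61, SE 0.33, adjusted p = 0.359). The calls of Ift80, Ttc8 and Myb were lost without any of 7, 2 and 8 libraries (adjusted p up to 0.15, 0.119 and 0.207).

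Other ependymal genes gave calls in both directions. Of 12 ependymal markers 2 fell and 1, Vim, rose. Rarres2, which encodes the secreted protein chemerin, went from 48457.1 and 41872.7 to 15316.2 and 10683.3 and to 2070.9 and 1629 at 5 dpi (1 dpi log2 fold change -1.82, SE 0.33, adjusted p = 0.0181). Mia, a small secreted protein, went from 1880.5 and 1712.1 to 517.3 and 440.9 and to 91.3 and 54.8 at 5 dpi (-1.91, SE 0.30, adjusted p = 0.0103). Ccdc153, an abundant marker of ciliated ependyma, went from 26338.8 and 24060.5 to 12573.1 and 12285.5 without passing (-1.02, SE 0.26, adjusted p = 0.0678). Of 15 junction, connexin and potassium channel genes Crb2, an apical polarity protein, fell from 1408.3 and 1726.5 to 451.8 and 507.7, and Ocln, occludin, fell from 2639.5 and 2521.8 to 929.3 and 1224.7. The calls of Rarres2 and Mia were lost without Foxj1_Olig2_tdT uninjured replicate 1 or either 1 dpi library, that of Crb2 without Foxj1_Olig2_tdT uninjured replicate 2 or either 1 dpi library, and that of Ocln without any of 6 libraries. Their highest adjusted p in those fits was 0.123, 0.0782, 0.0993 and 0.149.

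Among the 15 called genes with the lowest log2 fold changes under the naming rule, Tmem163 stood lowest. It went from 131.7 and 79.9 to 0.6 and 0 (-6.36, SE 1.33, adjusted p = 0.0349), a call kept in 6 of 12 leave-one-out fits. Some of the others follow, not all of them. Rpgrip1, a protein of the ciliary transition zone, went from 412.4 and 1152.1 to 70.1 and 26.2 and was back at 1244.4 and 1359.9 at 5 dpi (1 dpi log2 fold change -3.97, SE 0.56, adjusted p = 0.00621), and its call held in every leave-one-out fit. In Foxj1_tdT cells Rpgrip1 read 1067 and 1299.3 without injury and 1155.7 and 1849.1 at 1 dpi, and the interaction had an adjusted p of 0.108. H1f0, a linker histone of resting cells, went from 2691.1 and 1926.9 to 714.5 and 509.7 (-1.91, SE 0.28, adjusted p = 0.0069). Coq8a, a regulator of coenzyme Q synthesis, went from 649.7 and 454.2 to 74.7 and 38.8. Mturn, a neural progenitor protein, went from 784.7 and 724.4 to 72 and 144.6. Dpy19l2 went from 1936.2 and 1458.8 to 345.4 and 412.7. The H1f0 call was lost without Foxj1_Olig2_tdT 1 dpi replicate 2 (adjusted p = 0.0588), Mturn without Foxj1_Olig2_tdT uninjured replicate 1 or 1 dpi replicate 1 (up to 0.0978), and Coq8a and Dpy19l2 without Foxj1_Olig2_tdT uninjured replicate 1 or either 1 dpi library (up to 0.117 and 0.13).

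Oligodendrocyte lineage genes were examined because the genotype carries Olig2. Of 20 oligodendrocyte progenitor genes 3 rose and none fell, with a median log2 fold change of 0.28. Cspg4, the NG2 proteoglycan of progenitors and pericytes, had no value above 0 without injury and read 146.3 and 133.9 at 1 dpi. Ptprz1, a receptor phosphatase of progenitors and radial glia, went from 592.7 and 1119.9 to 3320.3 and 3595.3 (2.08, SE 0.44, adjusted p = 0.0373), and Vcan, versican, from 128.3 and 329.3 to 1007.3 and 1319.7 (2.48, SE 0.50, adjusted p = 0.0292). The members that rose are surface and matrix molecules that other glia can also make. The lineage transcription factors other than Olig2 were at or near 0 in both groups. Olig1 read 0 and 1 in uninjured cells and 0 and 0 at 1 dpi, Sox10 the same, and Pdgfra, the progenitor growth factor receptor, 2.1 and 0 and then 0 and 0. At 5 dpi Olig1 was at 536.9 and 52.5, Sox10 at 591.6 and 765.4 and Pdgfra at 437.1 and 1.1. Nkx2-2 was listed at 0 in all 4 libraries compared. The call of Cspg4 was lost without either 1 dpi library (adjusted p up to 0.0716) and those of Vcan and Ptprz1 without any of 7 libraries, and no progenitor gene was called in the 2 fits without a 1 dpi library.

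Later stages of the lineage gave 1 call. Of 14 genes of newly formed oligodendrocytes Frmd4a, a scaffold protein, rose from 393.2 and 340.6 to 1643.8 and 1801.4 (2.23, SE 0.35, adjusted p = 0.00954), and none of 21 myelin genes passed. Mbp, myelin basic protein, read 3147.8 and 991 without injury and 1644 and 4590.2 at 1 dpi (0.64, SE 1.54, adjusted p = 0.869), a spread within each group as wide as the gap between them. The Frmd4a call was lost without either 1 dpi library (adjusted p up to 0.075). None of 17 astrocyte genes passed, a list that does not hold Gfap and Vim, counted above with gliosis. Aqp4, the water channel, read 8250.4 and 15041.5 against 10158.7 and 7944.7 and Gja1, connexin 43, 10515.6 and 16683.3 against 9131.1 and 8469.3. Sox9, a glial factor chosen after its values were seen, read 10979.3 and 12430.1 against 12450.2 and 10316.1. Of 17 neural stem and progenitor genes Nes alone rose. None of 17 Notch pathway genes passed, with Notch1 at 1308.8 and 871.8 against 1987.5 and 2192 (0.97, SE 0.26, adjusted p = 0.0804). Of 19 BMP pathway and Id genes Bmp2 rose, from a listing of 0 in both uninjured libraries to 148.7 and 72.3, and so did Smad1, whose call was lost without any of 9 libraries.

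Retinoid and IGF-binding protein genes had 2 members that rose and 1 that fell among 18. Igfbp3, a binding protein of insulin-like growth factors, went from 0 and 50.7 to 1498.8 and 1597.3 (7.75, SE 1.79, adjusted p = 0.0492), a call lost without any of 7 libraries.

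Markers of cells that sorting could carry over were low and, in their sum, higher at 1 dpi. The 30 of 65 markers of other cell types found in the table made up 0.01327% and 0.009079% of the summed values without injury and 0.02324% and 0.02133% at 1 dpi, and 11 and 13, then 11 and 11, of the 30 were at 0. Lyz2 and Arg1 of myeloid cells, Col3a1 of fibroblasts, Csf1r of microglia and Rgs5 of pericytes were at 0 in all 4 libraries. Other members of these lists had values above 0. By list sum, pericyte markers went from 1.1 and 0 to 383.7 and 274.6. Neuron markers went from 166.2 and 134.8 to 639.7 and 1393.9, and microglia markers from 440.9 and 558.4 to 980.8 and 764.7. Endothelium markers went from 158.7 and 149.9 to 96.6 and 132.5, and fibroblast markers from 1043.7 and 361.6 to 893 and 218.5. Myeloid markers went from 8.2 and 5.6 to 3.6 and 3.2, and blood markers from 23.2 and 6.1 to 1.5 and 14.1. Nefm, a neurofilament protein, was the single marker to rise, from 2.9 and 1.9 to 425.1 and 531.1 (log2 fold change 7.15, SE 1.23, adjusted p = 0.015), and lost its call without Foxj1_Olig2_tdT uninjured replicate 1 or either 1 dpi library (adjusted p up to 0.0983), while Nefl, its partner, read 0 and 1 and then 0 and 689.8. Vtn, listed as a pericyte gene, read 0 and 0 and then 155.3 and 205.3 (adjusted p = 0.0505). Their part in the results on cytokines, matrix and Cspg4 was not tested. The oligodendrocyte progenitor list made up 0.07544% and 0.06992% without injury and 0.1223% and 0.1444% at 1 dpi, the myelin list 0.1593% and 0.1583% against 0.1493% and 0.2106%, and the ependymal markers 1.246% and 1.222% against 1.11% and 1.095%.

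The same contrast in Foxj1_tdT cells shares no library with this one. It gave 1755 calls (11.1%), of which 1163 rose (7.36%) and 592 fell (3.74%), with 812 calls without Foxj1_tdT 1 dpi replicate 2. Its uninjured libraries were nearly identical and entered the fit as 1 library. Of the genes that rose in Foxj1_Olig2_tdT cells 416 also rose in Foxj1_tdT cells, which is 69.1% of the former and 35.8% of the latter. Of those that fell 61 were shared, 52.1% of the former and 10.3% of the latter. Both contrasts came from the same fit and share each gene's estimate of spread, so their calls are not independent. How far this adds to the overlap was not tested. Only 3 genes that rose in Foxj1_Olig2_tdT cells fell in Foxj1_tdT cells and 2 did the reverse. Across the 10691 genes with a mean of at least 100 the 2 sets of log2 fold changes had a Pearson r of 0.583, given as a description since genes are not independent. The 13 calls for gliosis genes stood beside 15, the 18 for replication beside 22, and the 9 for mitosis beside 7. For the interferon list 6 genes rose here and 2 there, and for the axoneme genes 0 fell here and 19 there. The difference between the genotypes was not called for any interferon or axoneme gene, so these counts do not show that the response differed.

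**Figure D4:**
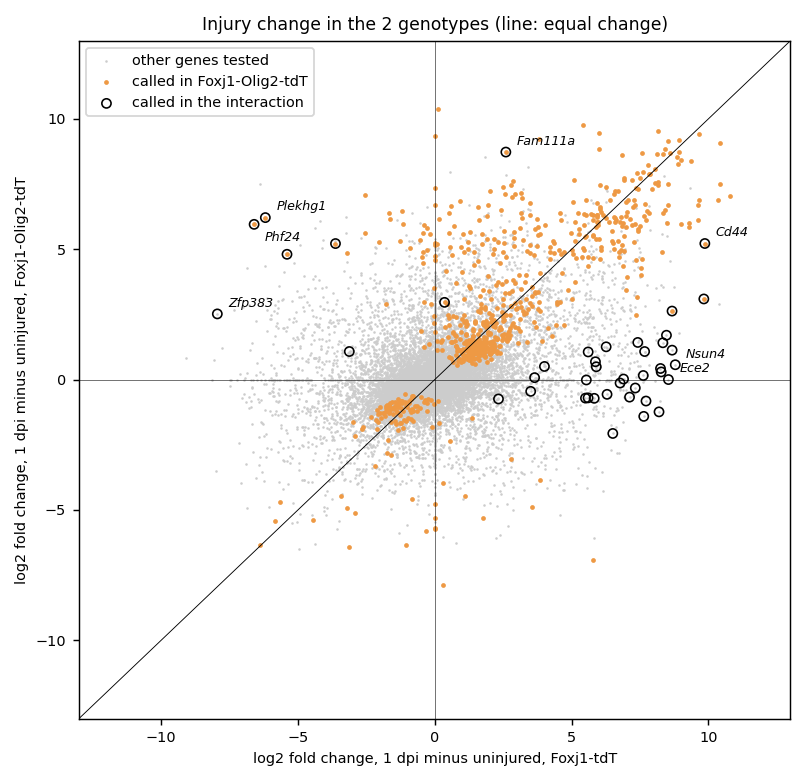
Log2 fold change at 1 dpi in Foxj1_Olig2_tdT cells (vertical) against that in Foxj1_tdT cells (horizontal) for every gene tested; orange points were called in Foxj1_Olig2_tdT cells and circles mark the 42 genes whose change differed between genotypes. Most orange points lie in the upper right, and most circles lie below the diagonal.

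The interaction of injury and genotype, which tests the difference between the 2 changes, was called for 42 genes (0.266%), of which 8 had the higher change in Foxj1_Olig2_tdT cells (0.0506%) and 34 the lower (0.215%). In 26 of the 34 the Foxj1_tdT uninjured mean was under 10, and in 5 of the 8 the Foxj1_tdT 1 dpi mean was under 10. The share of all genes tested that lay under 10 in those groups was not counted. The part of these low values in the calls was not tested. Only 9 of the 42 were themselves called in Foxj1_Olig2_tdT cells. Dclk1, a microtubule-associated kinase, was one of these. It went from 232.4 and 196.6 to 1573.7 and 1782.9 in Foxj1_Olig2_tdT cells (2.96, SE 0.21, adjusted p = 0.000468) and read 1225.7 and 1329.8 against 1400.4 and 1916.4 in Foxj1_tdT cells (0.36, adjusted p = 0.423). The interaction of Dclk1 had an SE of 0.33 and an adjusted p of 0.0314. Gabrb1, a GABA receptor subunit, went from 1088.5 and 1044.8 to 122.2 and 121.2 in Foxj1_tdT cells, a fall that passed, while it read 439.4 and 577.6 and then 1026.9 and 1105.1 in Foxj1_Olig2_tdT cells (interaction 4.20, SE 0.44, adjusted p = 0.0154). Both genes were chosen after their values were seen. The number of interaction calls ranged from 0 to 111 over the leave-one-out fits, and was 0 without either Foxj1_tdT 1 dpi library, without Foxj1_Olig2_tdT 1 dpi replicate 1, and without either Foxj1_Olig2_tdT 5 dpi library.

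Chromatin at the called genes was read from the single-cell ATAC sample, taken from non-neuronal cells without injury. The authors' numbered EP classes were pooled here as EP, which holds 754 of 1084 cells and 24882631 of 32207510 cut sites. With 1 sample there is no test. Of the genes that rose and had a promoter window, 98.0% (432 of 441) had a peak within 2 kb of a gene start. The shares were 93.8% (90 of 96) for those that fell and 91.6% (10381 of 11331) for all tested. Peaks were counted whatever the cell class. The share differed with level in uninjured Foxj1_Olig2_tdT cells, at 94.0% of all genes with a mean of 10 or more and 74.1% under 10. All those that fell had a mean of 10 or more, and those that rose stood at 99.6% and 95.0%. Median EP cut sites, scaled to the class total (CPM), were 25.9 for genes that rose, 48.7 for those that fell and 28.9 for all. The labels of that sample do not name this genotype. Cut sites in peaks within 2 kb of a Vim start came to 196.6 CPM in EP cells (exact Poisson 95% interval 191.1 to 202.2). They came to 8.864 in ACNT, which pools the authors' numbered ACNT classes (5.981 to 12.65), and 48 in their class OPC (39.86 to 57.31). At Gfap the order of EP and ACNT was the opposite, at 12.82 (11.45 to 14.31) and 77.12 (68.05 to 87.07). At Osmr the values were low in both, at 6.47 (5.51 to 7.551) and 1.773 (0.6506 to 3.859). These intervals cover counting error only.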

How the data were processed

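Bulk RNA was measured in 12 libraries, of which the 4 compared and the other 8, which share the estimate of spread, entered the fits. The signal values deposited by the authors were normalised counts with 1 decimal. How reads were counted and scaled is not given in the sources used here. Whole reads could not be reconstructed, so depth is unknown. The values summed to between 12601290 and 13878102 per library. The single-cell ATAC counts of cut sites per peak and cell, and the class names, were deposited by the authors. The submitters' processing notes list the build mm10 and the tools Bowtie2, SAMtools, deepTools, Cell Ranger and Cell Ranger ATAC, with no roles.

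Under R 4.3.3, limma 3.58.1 was fitted to log2(value + 1) (trended empirical Bayes, 6 group means), with a filter of at least 10 in at least 2 libraries and a Benjamini-Hochberg adjusted p under 0.05 per contrast. The 2 Foxj1_tdT uninjured libraries (r = 0.9895, against 0.8643 to 0.9276 in the other pairs) were averaged into 1. The script was tested on simulated data. Promoter windows came from RefSeq (GRCm38.p6), with 11331 of the tested genes matched by symbol, and peaks were assigned within 2 kb of a gene start. Further tools were pandas 2.3.3, numpy 2.4.6 and scipy 1.17.1.

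The members, the 39 lists and the tests were chosen with earlier results of these data known. Genes named were a standing list of 28 (such as Olig2, Foxj1, Gfap and Mki67), the 15 called genes at either end of the log2 fold change with non-overlapping libraries, a mean of at least 50 in 1 group and a value above 0 in each group, the 10 most abundant called genes listed at 0 in a group, up to 5 called members per list or its 2 most abundant where none was called, and the 10 largest interactions. Examples among them were picked after their values were seen. Of the table's entries, 23 have symbols converted to dates and are not named. A few genes that the rule selects are left unreported. The bulk ATAC and single-cell RNA samples were not used here. Alternatives were a pseudocount of 8, no filter, median-of-ratios factors, quantile normalization, all 12 libraries entered separately, the replicate number as a block, smaller sets of libraries and each library left out in turn.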

Additional observations from a re-analysis of the deposited data

Results flagged for a closer look

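The 12 genes below had a change at 1 dpi that differed between Foxj1_Olig2_tdT and Foxj1_tdT cells by the interaction test and are given here with their values. All differences are Foxj1_Olig2_tdT minus Foxj1_tdT in log2 fold change, from limma with Benjamini-Hochberg adjustment.

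Cd44 rose in both genotypes, with an interaction of -4.65 (SE 0.69, adjusted p = 0.0453). It read 92 and 127.5 without injury and 4576.8 and 3634.3 at 1 dpi in Foxj1_Olig2_tdT cells, and 3.9 and 3.9 without injury and 3173.3 and 6648.2 at 1 dpi in Foxj1_tdT cells. The 1 dpi levels overlapped, and the uninjured levels did not. Fam111a, a replication-associated protease, had an interaction of 6.13 (SE 0.80, adjusted p = 0.0314), with 0 and 0 against 79.4 and 64.8 without injury and 427.7 and 419.4 against 473.6 and 408.8 at 1 dpi. Here too the genotypes differed without injury and overlapped after it.

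In 4 genes the fitted interaction rests on a group at or near 0 and its size depends on the pseudocount. Phf24 (12.56, SE 1.34, adjusted p = 0.0154) read 0 and 0 then 48.9 and 76.3 in Foxj1_Olig2_tdT cells, and 103.5 and 89.1 then 0 and 0 in Foxj1_tdT cells. Plekhg1 (12.41, SE 1.28, adjusted p = 0.0154) read 0 and 0 then 72.3 and 74.3, and 79.9 and 64.9 then 0 and 0. Zfp383 (10.47, SE 1.25, adjusted p = 0.023) read 12.5 and 21.1 then 82 and 117.5, and 245.8 and 244.9 then 0 and 0. Fhod3, a formin (8.85, SE 1.31, adjusted p = 0.0453), read 0 and 1 then 53.8 and 49.7, and 100.8 and 95.9 then 7.4 and 6.7. In all 4 the libraries moved in opposite directions in the 2 genotypes, at low levels.

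The other 6 were near 0 in the 2 uninjured Foxj1_tdT libraries and between 24.5 and 808.2 in the other 6 libraries of the 2 contrasts. They were Ascc3 (-9.43, adjusted p = 0.0184), Edem1 (-9.05, adjusted p = 0.0345), Ticam1 (-8.57, adjusted p = 0.0453), Cmas (-8.54, adjusted p = 0.0355), Ece2 (-8.54, adjusted p = 0.00905) and Nsun4 (-8.22, adjusted p = 0.0154). Ece2, for example, read 242.1 and 254 then 265.3 and 232.8 in Foxj1_Olig2_tdT cells, and 2 and 0 then 514.2 and 808.2 in Foxj1_tdT cells. The uninjured Foxj1_tdT pair, nearly identical and averaged, enters all 12 values, and its part was not tested. Each of the 12 calls was lost in at least 5 of its 18 alternative fits, and those of Cd44 and Fhod3 in 12.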

How the results depend on the processing

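The count of 719 calls stayed within 1.5 times under a pseudocount of 8 (720), no filter (699), quantile normalization (675), median-of-ratios factors (715), a replicate block (588, of which 508 rose and 80 fell) and the 6 Foxj1_Olig2_tdT libraries alone (484). Same-numbered libraries did not deviate together over genes (r of 0.003051 between the compared groups). This cannot settle whether they share an animal or batch, which the labels do not say. The count was 1279 with all 12 libraries entered separately and 0 on the 4 libraries alone. Leave-one-out counts ran from 288 to 1063, with the lone library of a group assumed to vary like the others. The Foxj1_tdT count of 1755 became 4331 with the libraries separate and 812 to 2042 over leave-one-out fits. The interaction count of 42 became 15 with a pseudocount of 8, 438 with the libraries separate, 15 under the replicate block and 0 to 111 over leave-one-out fits. A peak within 10 kb was found at 95.0% of all genes, 99.1% of those that rose and 99.0% of those that fell. No called value changed direction among the results recomputed. Over the 122 called genes chosen for naming, 1105 of the leave-one-out fits kept the call and 359 lost it, and besides the fit on 4 libraries, which lost all, the most calls were lost with the 6 libraries alone (46) and with the replicate block (22). The cause of these losses was not tested. Over all genes, 208 calls (202 rose, 6 fell) passed in all 12 leave-one-out fits and in the 7 other settings outside the 4-library fit. Depth is unknown, so no limit can be set on transcripts listed at 0.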

Other observations

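Several gene groups outside the lists were counted by symbol after the values had been seen, and carry no test of the group. Of 86 cytosolic ribosomal protein genes 74 rose and none fell, with a median log2 fold change of 1.1, and they took 1.86% and 1.9% of the summed values without injury and 3.86% and 4.2% at 1 dpi. In Foxj1_tdT cells 77 of them rose. These genes have many processed pseudogenes, so the counting of each is uncertain. Of 78 mitochondrial ribosomal protein genes 6 rose, with a median of 0.221, and of 39 proteasome genes none was called. Of 25 S100, annexin and galectin genes 9 rose, among them Lgals1, from 111.7 and 344.4 to 5454.1 and 4957 and to 74063.8 and 77730.9 at 5 dpi (1 dpi log2 fold change 4.72, SE 0.44, adjusted p = 0.00111).

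Of 14 tubulin genes 4 rose and none fell. Tubb5, an abundant beta-tubulin of dividing cells, went from 881 and 903.9 to 10128.3 and 10717 (3.54, SE 0.23, adjusted p = 0.000336), and Tubb6 from 57.9 and 5 to 1788.5 and 1200.8. None of the 26 tested genes with Cfap symbols, which encode proteins of the ciliary axoneme, was called (median -0.575), beside 10 that fell in Foxj1_tdT cells. Dbi, the acyl-CoA-binding protein, fell from 159598.3 and 160787.6 to 79711.5 and 72027.7 (-1.08, SE 0.22, adjusted p = 0.0323), a call kept in 6 of 12 leave-one-out fits.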
